A study of Mus musculus with 16 samples.

Results

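The mouse mitochondrial genome is a small circular DNA of 37 genes, and all 37 were followed here in ventricular heart tissue during the first weeks after birth. They were chosen by the prefix mt- of their symbols, and made up 37 of the 53801 genes of the deposited count table. RefSeq (GRCm38.p6) placed each of them on the mitochondrial chromosome. They fall into 3 classes that were treated apart, with 2 genes for ribosomal RNA (mt-rRNA), 22 for transfer RNA (mt-tRNA) and 13 for messenger RNA (mt-mRNA). The rule used no measured value, but it was set with earlier results of these data known.

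Both strands of mitochondrial DNA are transcribed into long precursors by a single RNA polymerase of nuclear origin, and most mRNAs and rRNAs are released when the tRNAs lying between them are cut out at both ends. The mRNAs encode core subunits of the respiratory chain and of ATP synthase, and the rRNAs and tRNAs serve the mitochondrial ribosome that translates them. The strand names used below follow common usage, in which most genes are transcribed from the heavy-strand promoter, while mt-Nd6 and a minority of the tRNAs lie on the other strand and are called light-strand genes here. Heart muscle is rich in mitochondria, and the shift of the newborn heart towards oxidative metabolism is a well-known part of its maturation.

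The hearts came from male and female C57BL/6JOlaHsd pups killed before weaning, at 1, 4, 9 or 23 days of age, and the groups are named P01, P04, P09 and P23 after the age. Each age had 4 animals and 4 libraries, 16 in all, with no treatment and no genetic change. According to the paper, pups of P01, P04 and P09 had only milk, while those of P23 could also eat general mouse diet. At P23 diet and age can therefore not be told apart. Small RNA libraries were made from total RNA by polyadenylation, cDNA synthesis and PCR, so the count of a gene does not tell an intact RNA from a piece of one. The question taken here was how the 3 classes of mitochondrial RNA, and the genes within each, differed between successive days and between P01 and the later days.

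Libraries are named by day and animal number, and their values are given in the order no. 1, 5, 6 and 8 at P01, no. 1, 3, 4 and 6 at P04, no. 2, 3, 4 and 5 at P09, and no. 1, 5, 6 and 8 at P23. Library totals lay between 2301587 and 2904097 counts at P01 and between 4694722 and 5553530 at P23, with 3336621 to 5505319 at P04 and P09. Levels are given as CPM, a depth-scaled count, with library totals corrected by TMM factors, and a gene was called where edgeR gave an adjusted p under 0.01 and a fold change over 1.8. Cardiomyocyte markers (7 genes) summed to between 5291 and 5516 CPM at P01 and to between 8896 and 10396 at P23, with 4 of 7 up and 1 down in the P23–P01 comparison. Markers of atrial cardiomyocytes summed to between 125 and 180 CPM at P01, between 33.7 and 84.6 at P04, and at most 204 in any library. Of the 3 tested, 1 was called down in each of P04–P01, P09–P01 and P23–P01. Erythroid markers rose too, from between 347 and 366 CPM at P01 to between 1234 and 1639 at P23, with 5 of 5 called up, and leukocyte markers went from between 5.14 and 6.96 to between 23.8 and 30.5 CPM. Of the 4 leukocyte markers 2 were tested, and in P23–P01 edgeR called 1 up and DESeq2 2. The mean of Lyz2 went from 3.32 to 17.4 CPM and that of Cd68 from 0.913 to 1.05. Endothelial markers summed to between 54.7 and 66.9 CPM at P01, between 83.7 and 104 at P09 and between 65.8 and 81.0 at P23. None of the 4 was called in P09–P01, where 3 were higher at an unadjusted p under 0.05 by edgeR. Brown adipocyte markers lay between 0.919 and 7.72 CPM in all 16 libraries with Adipoq at 0 counts throughout, and skeletal muscle markers between 0.16 and 1.86. Smooth muscle markers went from between 67.4 and 104 CPM at P01 to between 141 and 209 at P23, with 2 of 3 called up in P23–P01. Fibroblast markers summed to between 379.7 and 487 CPM at P01, between 660.5 and 731 at P09 and between 402 and 523 at P23. Of the 5, 2 were called up in P09–P01, 2 up in P23–P01 and 2 down in P23–P09. From P01 to P23 the mean of Dcn went from 55.3 to 160 CPM and that of Pdgfra from 3.76 to 8.51. The means of Col1a1 (158 to 104), Col1a2 (99.9 to 79.9) and Col3a1 (106 to 111) did not follow them. Of all genes tested, 13.5% were called up and 16.6% down in P23–P01, and 6.18% up and 11.5% down in P09–P01. In P23–P09 5.55% were called down, and in P04–P01 4.13%. The part of these cells in the results below was not tested, and in whole ventricles more cells of a type cannot be told apart from more RNA per cell.

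Before any comparison, 1 property of the counts decided which genes could be studied. Of the 37 genes, 27 passed the filter on low counts, namely 2 of 2 mt-rRNAs, 17 of 22 mt-tRNAs and 8 of 13 mt-mRNAs. The other 10 were nearly empty, with at most 39 counts each over all 16 libraries. They were the mRNAs of mt-Co2 and mt-Co3 (subunits of cytochrome c oxidase, complex IV), mt-Atp6 and mt-Atp8 (subunits of ATP synthase) and mt-Nd4l (a subunit of complex I), and the tRNAs mt-Ty, mt-Ts1, mt-Td, mt-Tk and mt-Tg, which carry tyrosine, serine, aspartate, lysine and glycine.

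Of these 10 genes, 8 form a single uninterrupted stretch, from mt-Ts1 to mt-Tg, at positions 6870 to 9458 of the mitochondrial chromosome (2589 bases). The stretch held 62 of the 19292563 counts of all mt- genes, and mt-Td and mt-Tk had 0 counts in all 16 libraries, where 3 counts per library would be the limit that a count of 0 allows. On its left side the stretch is bordered by mt-Co1, which had between 928 and 9481 CPM, and on its right side by mt-Nd3, with between 114.5 and 889 CPM.

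RefSeq lists 2 pseudogenes on chromosome 1 of GRCm38.p6 whose lengths equal those of 2 of the empty genes. Gm10222 (positions 24612404 to 24612700) has the 297 bases of mt-Nd4l, and Gm10925 (24613971 to 24614651) the 681 bases of mt-Atp6. They lie in the order of those genes and with almost their spacing, in reverse orientation. Gm10222 had 286 counts in all and at most 68 in a library, while mt-Nd4l had 24, and Gm10925 had 23 counts while mt-Atp6 had 39. How reads with several matching places were counted is not given in the sources used here, and its part in the empty stretch was not tested. For these 10 genes no change with age was measurable, and every count of genes below refers to the 27 that were tested. Neighbouring genes overlap too, the longest overlaps being the 43 bases shared by mt-Atp8 and mt-Atp6 and the 14 shared by mt-Nd5 and mt-Nd6, and whether counting used the strand is not given in the sources used here.

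Levels of different genes were compared per kilobase of gene length, as CPM of the plain library total per kb. At P01 the highest was mt-Tp, with 89845 CPM per kb, followed by mt-Tm (87295), mt-Rnr1 (67457), mt-Rnr2 (54197) and mt-Tv (34667). At P23 the order was mt-Tp (190899), mt-Tv (155842), mt-Rnr2 (142977), mt-Tm (141314) and mt-Tl1 (111895), so that mt-Rnr1 left the first 5 places. The highest mRNA stood at place 16 per kb on both days, as mt-Nd1 at P01 (4148) and mt-Nd2 at P23 (11423). The tRNAs spanned a wide range among themselves, since mt-Tw, mt-Te, mt-Tn and mt-Th stood between 2.61 and 173 CPM per kb at P01 and between 130.5 and 266 at P23, below all other tested genes. Neighbouring genes in these orders were not tested against each other. Whether the library preparation took up these RNAs equally was not tested, so the orders are of counts and not of RNA amounts.

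**Figure D1:**
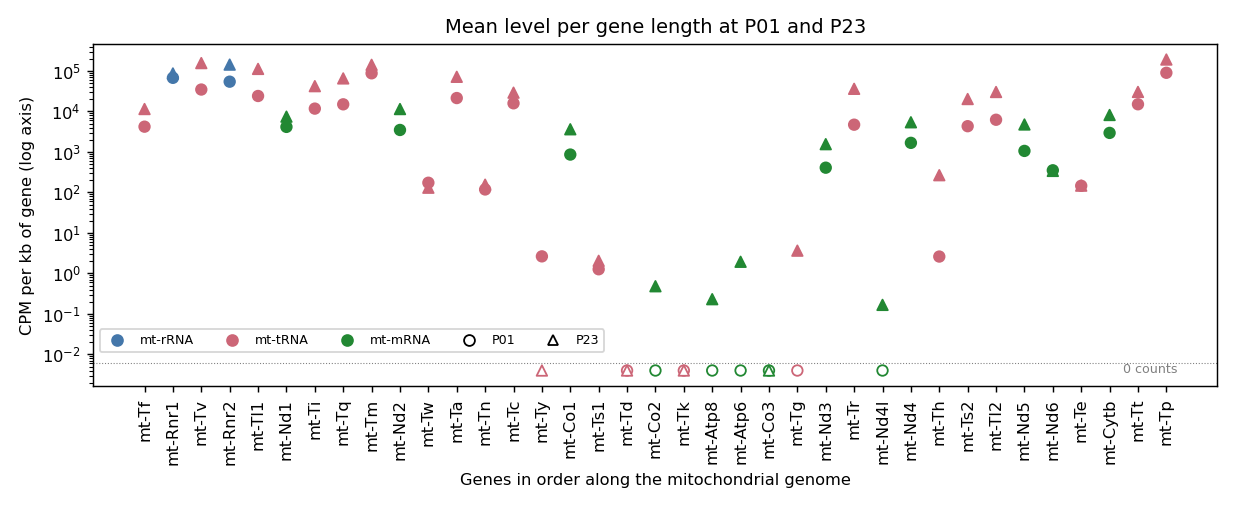
Mean level of each of the 37 genes per kb of gene length (log axis, CPM of the plain library total) at P01 (circles) and P23 (triangles), in their order along the mitochondrial genome and coloured by class, with open symbols for genes at 0 counts on that day. The stretch from mt-Ts1 to mt-Tg lies far below its neighbours on both days, and mt-Tw, mt-Tn, mt-Th and mt-Te stand below the other tested tRNAs.

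Taken as shares of all counts, the classes grew at different times. The mt-rRNA share was 15.0% ± 0.945 (SD, n = 4) at P01, then 18.9% ± 1.51 at P04 and 18.6% ± 0.516 at P09, and 30.9% ± 2.06 at P23. The mt-tRNA share was 2.2965% ± 0.151, 2.42% ± 0.175, 3.06% ± 0.151 and 6.47% ± 0.385 on the same days. The mt-mRNA share was 1.68% ± 0.255, 2.15% ± 0.452, 4.69% ± 0.669 and 5.07% ± 1.32. The largest step of the mRNAs thus lay between P04 and P09, and the largest steps of rRNAs and tRNAs between P09 and P23.

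The P09–P04 difference of the mRNA share was 2.53 percentage points, and that of the tRNA share 0.645, both with groups that did not overlap (exact permutation p = 0.0286, the smallest that 4 against 4 libraries allow, adjusted p = 0.039 over 15 tests). The rRNA share differed by -0.346 points between P09 and P04, with overlapping groups (adjusted p = 0.743, exact permutation test). Between P09 and P23 the rRNA share rose by 12.3 points and the tRNA share by 3.41 points, again without overlap and with the same adjusted p. The mRNA share differed by 0.379 points between P09 and P23, with P23 libraries on both sides of the P09 range (adjusted p = 0.673, exact permutation test). Between P01 and P04 the rRNA share alone passed, with a rise of 3.92 points.

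A share depends on everything else in the library. Nuclear rRNA took 45.0% ± 2.12 of a P01 library, then 40.9% ± 1.71, 41.0% ± 2.34 and finally 30.7% ± 1.496, and nuclear protein-coding genes 17.6% ± 0.717, 17.1% ± 0.963, 17.9% ± 2.06 and 12.7% ± 1.86. All mt- genes together held 19.0% ± 0.982, 23.5% ± 2.01, 26.3% ± 0.616 and 42.4% ± 1.34. With nuclear rRNA left out of the total, the P09–P01 rise of the tRNA share was 1.02 points and no longer passed (adjusted p = 0.0779, exact permutation test).

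**Figure D2:**
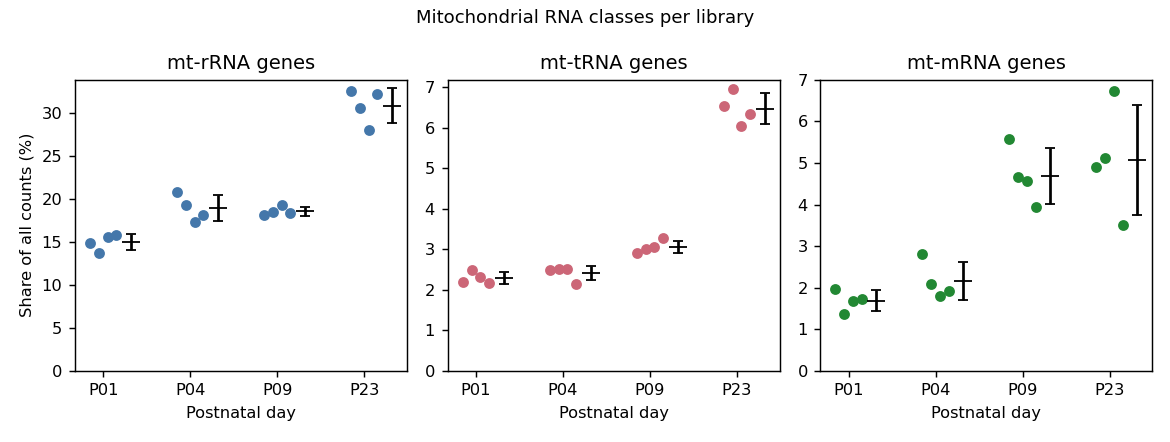
Share of all counts (%) held by the mt-rRNA, mt-tRNA and mt-mRNA genes in each of the 16 libraries by postnatal day, with the mean and SD (n = 4) beside the points. The P23 libraries stand clear of P09 for rRNA and tRNA, while for mRNA the step lies between P04 and P09 and the P23 libraries spread from 3.505% to 6.74%.

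Weighing the classes against each other removes the nuclear genes. Of all mt- counts, mRNA held 8.85% ± 1.10 at P01, then 9.10% ± 1.11 at P04 and 17.8% ± 2.2998 at P09, and 12.0% ± 3.38 at P23. None of the 15 differences between classes and days reached an adjusted p under 0.05 (smallest 0.0612, exact permutation test). Groups did not overlap, however, for mRNA in P09–P04 (8.68 points) and P09–P01 (8.93). The same held for rRNA in P09–P04 (-9.99), P09–P01 (-8.43) and P23–P01 (-6.26), and for tRNA in P23–P09 (3.61) and P23–P01 (3.11). Each had the smallest possible exact permutation p, 0.0286. Its adjusted value depends on how many of the 15 tests reach it, so missing the threshold does not show equal shares. When the abundant rRNAs were left out of the total, mRNA made up 42.2% of the remaining mt- counts at P01, then 46.8% at P04 and 60.3% at P09, and 43.4% at P23, and tRNA the rest. The mRNA part was 13.4 points higher at P09 than at P04 and fell by 16.9 points from P09 to P23, and each of these passed (exact permutation p = 0.0286, adjusted p = 0.0476). The P23–P01 difference was 1.20 points, with overlapping groups, and did not pass the exact permutation test.

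The 12S ribosomal RNA, mt-Rnr1, belongs to the small subunit of the mitochondrial ribosome. In library order, mt-Rnr1 stood at 66809.9, 64861, 65825 and 66219 CPM at P01, then 64937, 68848, 59097 and 58789 at P04, 52425, 71595, 59416 and 65195 by P09 and 121602, 103843, 86960.5 and 135310.0 by P23. The P23 libraries all stood above the others, whose ranges overlapped. In the P23–P09 comparison it rose by a log2 fold change of 0.85 ± 0.16 (SE, adjusted p = 0.000178) on the edgeR fit, a fold change of 1.801 that lay just over the threshold. This call was lost without P09 no. 2 (0.77), P09 no. 4 (0.83), P23 no. 1 (0.83) or P23 no. 8 (0.75). For P23–P01 the log2 fold change of 0.76 ± 0.16 (SE, adjusted p = 0.000222) from edgeR came with a fold change of 1.70, under the threshold, and without P23 no. 6 the log2 fold change was 0.89 and called.

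The 16S ribosomal RNA, mt-Rnr2, is the scaffold of the large subunit, and its gene lies on the same strand shortly after mt-Rnr1. For mt-Rnr2 the libraries held 86191, 80309, 89182 and 95023 CPM at P01, then 111882, 110429, 91517 and 95499 at P04, 81411, 93374, 100684 and 99761 by P09 and 339881, 292110.0, 233600.0 and 360496 by P23. All P23 libraries lay above every earlier library by a wide margin. In the P23–P09 comparison it had a log2 fold change of 1.71 ± 0.17 (SE, adjusted p = 2.76e-09), and in P23–P01 a log2 fold change of 1.81 ± 0.17 (SE, adjusted p = 1.56e-10), both by edgeR. Both rRNAs were thus called up in P23–P09, while 4.76% of the 10742 genes tested were called up, 5.55% down and 10.3% in all. Neither was called in P04–P01, P09–P04 or P09–P01, where edgeR also gave no unadjusted p under 0.05 and DESeq2 no call.

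The ratio of the 2 rRNAs needs no scaling between libraries. The mt-Rnr2 to mt-Rnr1 count ratio was 1.29, 1.24, 1.35 and 1.43 at P01, then 1.72, 1.60, 1.55 and 1.62 at P04, 1.55, 1.30, 1.69 and 1.53 at P09, and 2.80, 2.81, 2.69 and 2.66 at P23. The P23 libraries formed a narrow group far above the rest. The mean ratio at P23 was 2.74 ± 0.0752 (SD, n = 4), against 1.52 ± 0.161 at P09 and 1.33 ± 0.085 at P01 (exact permutation p = 0.0286, adjusted p = 0.0476 over 5 comparisons for each). The P04–P01 difference, 1.62 ± 0.0727 against 1.33 ± 0.085, passed with the same values, while P09–P04 (adjusted p = 0.286) and P09–P01 (adjusted p = 0.107, exact permutation tests) did not.

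Of the 8 mRNAs tested, 6 were called up and none down in the P09–P04 comparison, where 1.40% of all genes tested were called up, 3.71% down and 5.10% in all. Their median log2 fold change was 1.00, beside -0.01 over all genes tested. Libraries of P09 all lay above those of P04 for 8 of 8 mRNAs, which was the case for 9.36% of all genes tested. For falls of mRNAs, edgeR gave no unadjusted p under 0.05 in P09–P04, P23–P09, P09–P01 or P23–P01, and DESeq2 no call. In P04–P01, by contrast, none of the 8 was called in either direction by edgeR or DESeq2, while edgeR gave an unadjusted p under 0.05 for 2 that were higher and 1 that was lower (background 1.07% up, 4.13% down and 5.20% in all). In the P23–P09 comparison 3 of 8 were called up and none down, with 7 higher and none lower at an unadjusted p under 0.05, and DESeq2 gave 3 and 0.

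The P23–P09 calls of the mRNAs depended on scaling. With the plain library total in place of TMM factors the median of all genes moved to -0.68 in P23–P09, to -0.38 in P23–P01, to 0.32 in P09–P01 and to 0.24 in P04–P01, and none of the 8 mRNAs was then called up in P23–P09. Relative to that median, mt-Nd3 stood at 1.32, mt-Nd2 at 1.30 and mt-Nd6 at -0.44 on the log2 scale. Of the other classes, 13 of 17 tRNAs and mt-Rnr2 (log2 fold change 1.01) were called up in that comparison, while mt-Rnr1 (0.16) was not. The P09–P04 count of mRNAs was 6 under both scalings, but with the plain total mt-Co1 was not called (log2 fold change 1.37, adjusted p = 0.0113, edgeR) and mt-Nd4 was (0.88).

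**Figure D3:**
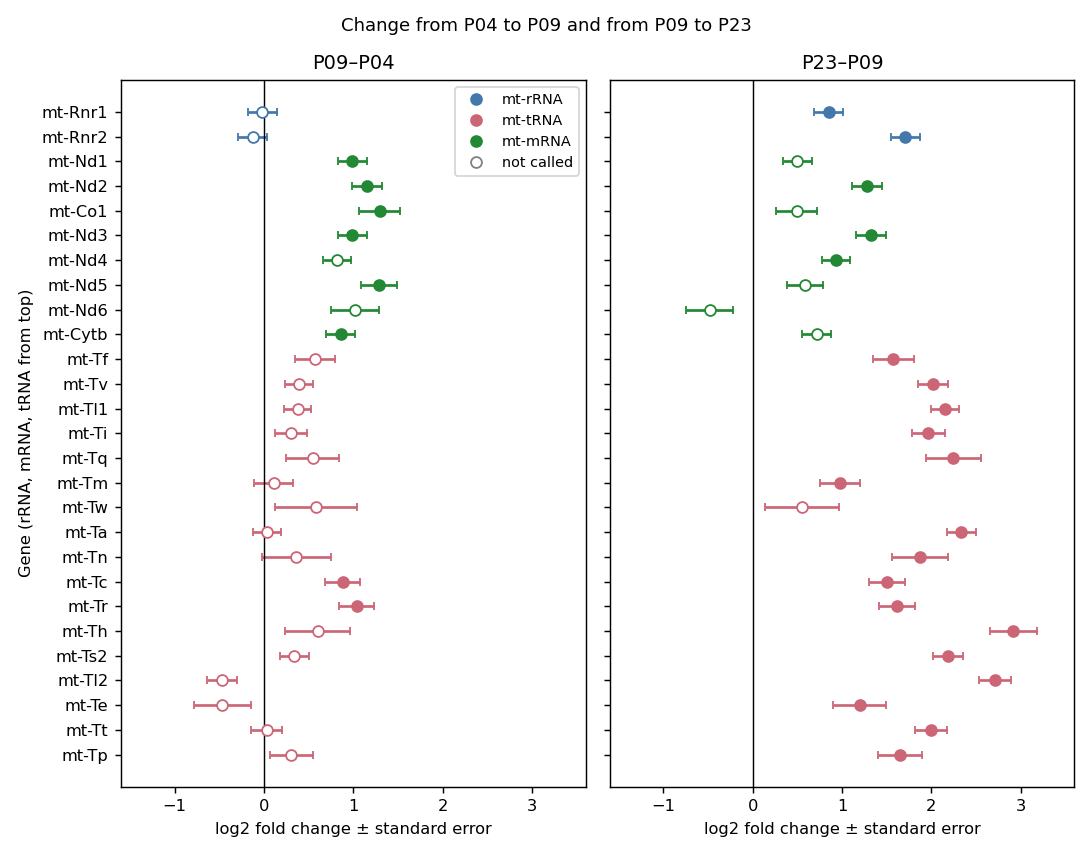
Log2 fold change with its standard error from edgeR for the 27 tested genes in the P09–P04 (left) and P23–P09 (right) comparisons, grouped by class, with filled points for called genes and open points for the others. The mRNA points stand right of 0 at P09–P04 and the tRNA points further right at P23–P09, and mt-Nd6 is the only gene left of 0 in the latter.

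Complex I, the entry point of NADH electrons into the respiratory chain, takes its mitochondrially encoded subunits from the Nd genes. Counts of mt-Nd2 came to 4240.4, 2955, 3768 and 3806 CPM at P01, then 3658, 2972, 2451 and 2562 at P04, 6138, 7615, 6044 and 6059.9 by P09 and 16177, 15073, 17201 and 14287 by P23. This gene, for a membrane subunit of complex I, had the highest level per kb of the mRNAs at P23, and its P23 libraries lay far above P09, which lay above P01 and P04. It was called up both from P04 to P09 (log2 fold change of 1.15 ± 0.17 SE, adjusted p = 1.31e-05) and from P09 to P23 (log2 fold change of 1.28 ± 0.17 SE, adjusted p = 6.12e-07, edgeR). At P01 mt-Nd1 had 4593, 3687, 4008 and 3955 CPM, followed by 3952, 3503, 2838 and 2990.3 at P04, 6664, 7241, 6177 and 6252 by P09 and 9728, 9345, 10918 and 7269 by P23. The ranges of P01 and P04 overlapped for mt-Nd1, another membrane subunit, while P09 and P23 were higher in turn. Its rise was called in P09–P04 (log2 fold change of 0.99 ± 0.16 SE, adjusted p = 7.18e-05), and the P23–P09 log2 fold change of 0.50 ± 0.16 (SE, adjusted p = 0.0216) was not called (edgeR).

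In library order, mt-Nd3 stood at 134, 132, 154 and 160.4 CPM at P01, then 192, 163, 115 and 114 at P04, 275, 309, 283 and 294 by P09 and 671, 676, 669 and 889 by P23. This small membrane subunit showed overlapping P01 and P04 groups, a higher P09 group and a P23 group higher still, in which 3 libraries lay within 669 and 676 CPM and P23 no. 8 stood at 889. The log2 fold change of 0.99 ± 0.16 (SE, adjusted p = 6.97e-05) in P09–P04 was followed by a log2 fold change of 1.32 ± 0.16 (SE, adjusted p = 2.19e-07) in P23–P09 (edgeR), the largest rise of any mRNA in that comparison, though without P23 no. 8 mt-Nd2 (1.33) came before mt-Nd3 (1.22). For mt-Nd4 the libraries held 2726, 2014, 2295 and 2395 CPM at P01, then 3556, 3145, 2386 and 2603 at P04, 5107, 5510.0, 5035 and 4949 by P09 and 10162, 9498, 10739.8 and 8882 by P23. For this subunit of the proton-pumping arm the P09–P04 log2 fold change of 0.82 ± 0.16 (SE, adjusted p = 0.000516) missed the fold threshold, and the call was gained without P04 no. 1 (0.94) or P04 no. 3 (0.85). From P09 to P23 it rose with a log2 fold change of 0.93 ± 0.16 (SE, adjusted p = 4.07e-05) (edgeR).

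Counts of mt-Nd5 came to 2535, 1453, 1757 and 2145 CPM at P01, then 4199.6, 2952, 2610.2 and 2552 at P04, 8708, 7378, 7651 and 6370.5 by P09 and 11809, 11737, 14180.0 and 7425 by P23. This large proton-pumping subunit had P09 libraries well above P04, while P23 no. 8 fell within the P09 range. It had the largest log2 fold change of all mRNAs in P23–P01 (log2 fold change of 2.52 ± 0.21 SE, adjusted p = 2.22e-11, edgeR), and in P09–P01 the value was also called (log2 fold change of 1.93 ± 0.21 SE, adjusted p = 8.94e-09). At P01 mt-Co1 had 1808, 928, 1138 and 1556 CPM, followed by 3106, 1997, 1595 and 1719.7 at P04, 6004, 5185, 5155 and 4317 by P09 and 7369, 7413, 9481 and 4811 by P23. The gene encodes the catalytic subunit of cytochrome c oxidase, and here too P23 no. 8 fell within the P09 range. Its log2 fold change of 1.30 ± 0.23 (SE, adjusted p = 0.000317) in P09–P04 was the largest of the mRNAs, while P23–P09 (log2 fold change of 0.49 ± 0.23 SE, adjusted p = 0.12, edgeR) was not called.

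In library order, mt-Cytb stood at 4031, 3076, 3306 and 3373 CPM at P01, then 4982, 4363, 3533 and 3662 at P04, 7693, 8224, 7197 and 6873 by P09 and 13253, 12325, 13388 and 10286 by P23. Cytochrome b, the only mitochondrially encoded subunit of complex III, showed P09 above P04 and P23 above P09 with no overlap. Its P09–P04 rise (log2 fold change of 0.86 ± 0.16 SE, adjusted p = 0.00034, edgeR) lay close to the threshold and was lost without P04 no. 4 (0.80), P04 no. 6 (0.81) or P09 no. 3 (0.81). The call was also lost with nuclear mRNA scaling (0.85) and with counts thinned to the smallest library total (0.84). The P23–P09 rise of mt-Cytb (log2 fold change of 0.72 ± 0.16 SE, adjusted p = 0.00111, edgeR) missed the fold threshold. Over the whole period, P23–P01, 7 of the 8 mRNAs tested were called up and none down, at a median of 2.07 (background 13.5% up, 16.6% down and 30.2% in all), and for the same number the P23 libraries all lay above P01 (20.0% of all genes tested), and in P09–P01 5 were called up (6.18% up, 11.5% down and 17.6% in all). The gene not called up in P23–P01 was mt-Nd6.

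The only mRNA of the light strand, mt-Nd6, encodes another membrane subunit of complex I, and it stood apart from the other mRNAs at P23. For mt-Nd6 the libraries held 223, 133, 178 and 211 CPM at P01, then 199, 157, 136 and 134 at P04, 369, 297, 319 and 283 by P09 and 259, 250.4, 302 and 96.4 by P23. The P09 libraries lay above P04, the first 3 P23 libraries near the lower end of P09, and P23 no. 8 below all other libraries of the series. It was called in none of the 5 comparisons, and P09–P04 gave a log2 fold change of 1.02 ± 0.27 (SE, adjusted p = 0.0168), P23–P09 a log2 fold change of -0.48 ± 0.27 (SE, adjusted p = 0.217) and P23–P01 a log2 fold change of 0.29 ± 0.27 (SE, adjusted p = 0.402) by edgeR. DESeq2 did call the P09–P04 rise, at 1.03.

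As a share of mt-mRNA counts, mt-Nd6 held between 0.927% and 1.20% at P01, between 0.817% and 0.867% at P04, between 0.712% and 0.901% at P09, and at P23 between 0.374% and 0.393% in 3 libraries and 0.179% in P23 no. 8. In a fit with the mRNA class total as library size, it was the only mRNA called, with -1.30 ± 0.23 in P23–P09 (adjusted p = 3.45e-05) and -1.70 ± 0.23 in P23–P01 (adjusted p = 7.63e-08, edgeR). In that fit 34.7% of all genes tested were called down in P23–P09 and 86.1% in P23–P01. Without P23 no. 8 the values were -1.09 (adjusted p = 6.00e-05) and -1.49 (adjusted p = 8.99e-08, edgeR), both still called.

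The tRNAs changed mainly between P09 and P23. Of 17 tested, 16 were called up and none down in P23–P09 (4.76% and 5.55% of all genes tested), at a median log2 fold change of 1.97, and no tRNA had an unadjusted p under 0.05 for a fall. DESeq2 gave the same counts. In P04–P01 1 was called up and 1 down (median -0.21, background 1.07% and 4.13%), against 0 and 2 by DESeq2. In P09–P04 2 were called up and none down (median 0.36, background 1.40% and 3.71%), with 6 higher and 1 lower at an unadjusted p under 0.05, and in P09–P01 2 were called up and none down (median 0.08, background 6.18% and 11.5%), with 3 lower at an unadjusted p under 0.05. Over P23–P01 14 were called up and none down (background 13.5% and 16.6%), at a median of 2.13, with no fall at an unadjusted p under 0.05 and the same counts by DESeq2. These counts include mt-Th, which had almost no counts at P01 and whose rise against P01 was built in by the filter on low counts. Without it, 0 tRNAs were called up in P04–P01, 1 in P09–P01 and 13 in P23–P01, at medians of -0.22, 0.01 and 1.98. All P23 libraries lay above all P09 libraries for 15 of 17, which was the case for 12.9% of all genes tested.

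Proline tRNA, mt-Tp, a light-strand gene, had the highest level per kb of all mt- genes. Counts of mt-Tp came to 6181, 7648, 5925 and 4951 CPM at P01, then 4441, 5026, 4762 and 4058 at P04, 4119, 5443, 5665 and 7398 by P09 and 13254, 15089.6, 11539.7 and 30825 by P23. The P23 libraries lay above all others, and P23 no. 8 stood far above the other 3. The log2 fold change of 1.64 ± 0.25 (SE, adjusted p = 2.04e-05) in P23–P09 (edgeR) was 1.24 without that library. Methionine tRNA, mt-Tm, which serves both initiation and elongation in mitochondria, ranked 2 per kb at P01 and 4 at P23. At P01 mt-Tm had 5674, 6976, 6193 and 5843 CPM, followed by 6409, 7507, 5222 and 5042 at P04, 4617, 6349, 6371 and 8713 by P09 and 15619, 16625, 12163 and 6871 by P23. Here P23 no. 8 lay within the range of the earlier days, and the P23–P09 log2 fold change of 0.98 ± 0.22 (SE, adjusted p = 0.0014) (edgeR) was called, though not without P09 no. 2 (0.85), P23 no. 5 (0.84) or P23 no. 6 (1.02). This call was also lost with 2 groups alone (0.95), without the filter (0.91) and with the plain library total (0.34).

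Valine tRNA, mt-Tv, lies between the 2 rRNA genes on the heavy strand. In library order, mt-Tv stood at 2435, 2759, 2286 and 2328 CPM at P01, then 2615, 2853, 3174 and 2283 at P04, 3141, 3775, 3494 and 3926 by P09 and 16159.7, 15516, 10899.5 and 15477 by P23. Its P23 group lay far above the others, with P23 no. 6 the lowest, and the P09 libraries overlapped P04 at their lower end. From P09 to P23 it rose by a log2 fold change of 2.02 ± 0.17 (SE, adjusted p = 1.34e-10), more than mt-Rnr1 on its left (0.85) and mt-Rnr2 on its right (1.71) in the same edgeR fit, although those differences between neighbours were not tested.

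Arginine tRNA, mt-Tr, rose in both of the later steps. For mt-Tr the libraries held 359, 306, 339.6 and 303 CPM at P01, then 592, 562, 517 and 353 at P04, 1056, 1077, 1122 and 907 by P09 and 3358, 3936, 3743 and 1736 by P23. The P09 libraries lay above P04 and the P23 libraries above P09, while P04 no. 6 lay within the P01 range and P23 no. 8 was the lowest of its group. It was called up in P09–P04 (log2 fold change of 1.04 ± 0.20 SE, adjusted p = 0.000391), in P23–P09 (log2 fold change of 1.62 ± 0.20 SE, adjusted p = 2.31e-07) and in P09–P01 (log2 fold change of 1.67 ± 0.20 SE, adjusted p = 7.44e-08, edgeR), and its neighbours on the genome are mt-Nd3 and mt-Nd4l. Leucine tRNA for CUN codons, mt-Tl2, lies between mt-Ts2 and mt-Nd5. Counts of mt-Tl2 came to 444, 469, 442 and 454 CPM at P01, then 488, 565, 777 and 592 at P04, 521, 449.7, 416 and 363 by P09 and 3637, 3123, 2244 and 2472 by P23. The P04 libraries lay above P01, the P09 libraries overlapped both, and those at P23 were far above all others. Of the successive comparisons only P23–P09 was called, with a log2 fold change of 2.71 ± 0.18 (SE, adjusted p = 1.48e-12), and the P09–P04 log2 fold change of -0.47 ± 0.17 (SE, adjusted p = 0.0626) did not pass (edgeR).

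Histidine tRNA, mt-Th, lies between mt-Nd4 and mt-Ts2 and had few counts. At P01 mt-Th had 0, 0, 0 and 0.711 CPM, followed by 0.758, 2.07, 1.30 and 3.88 at P04, 3.61, 4.77, 1.92 and 2.35 by P09 and 25.3, 23.1, 23.3 and 23.3 by P23. Its P01 group held 2 counts in all, in a single library, and the P23 libraries lay close together, far above all others. It passed the filter on low counts only through its later libraries, so that some difference was built in. Against P01, the summed counts gave a ratio of 10.9 at P04 (exact 95% interval 2.81 to 93.8), 16.5 at P09 (4.41 to 139) and 126 at P23 (34.7 to 1046), intervals that cover counting error only. From P09 to P23 it rose by a log2 fold change of 2.91 ± 0.26 (SE, adjusted p = 5.20e-09) (edgeR). The P04–P01 call was lost without P01 no. 1 (2.88), P01 no. 5 (2.97), P01 no. 6 (2.85), P04 no. 3 (3.25) or P04 no. 6 (2.73), and DESeq2 did not make it.

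Threonine tRNA, mt-Tt, and asparagine tRNA, mt-Tn, had their lowest values at P04 and P09. In library order, mt-Tt stood at 858, 969, 1181 and 1101 CPM at P01, then 719, 764, 626 and 555 at P04, 581, 678, 671 and 793 by P09 and 3508, 3066, 2135 and 2123 by P23. The P04 and P09 libraries lay below P01 and the P23 libraries above it, but the P09–P01 log2 fold change of -0.59 ± 0.18 (SE, adjusted p = 0.00845) stayed under the fold threshold, and P23–P09 was called (log2 fold change of 1.99 ± 0.18 SE, adjusted p = 8.12e-10, edgeR). For mt-Tn the libraries held 7.32, 11.5, 11.3 and 4.27 CPM at P01, then 2.27, 3.10, 4.42 and 2.74 at P04, 2.94, 5.45, 3.83 and 4.27 by P09 and 13.8, 24.5, 9.05 and 11.5 by P23. For mt-Tn the P01 group overlapped each of the other 3, and P23 lay above P04 and P09. Its P04–P01 log2 fold change of -1.44 ± 0.38 (SE, adjusted p = 0.018) did not pass. It was called by DESeq2 (-1.46), without the filter (-1.35), with 2 groups alone (-1.43) and without P01 no. 8 (-1.67), and in P09–P01 without the filter (-0.91), with 2 groups alone (-1.11) and without P01 no. 8 (-1.30). The P23–P09 rise passed (log2 fold change of 1.88 ± 0.31 SE, adjusted p = 0.000179, edgeR), though not with counts thinned to the smallest library total (1.13). The only fall that the edgeR fit of all 16 libraries called for a tRNA in P04–P01 was that of cysteine tRNA, mt-Tc (log2 fold change of -1.09 ± 0.20 SE, adjusted p = 0.000227, edgeR). The rise of mt-Tc in P09–P04 was lost without P04 no. 4 (0.81) or P09 no. 3 (0.71), and with counts thinned to the smallest library total (0.84).

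Glutamate tRNA, mt-Te, and tryptophan tRNA, mt-Tw, had low counts throughout. Counts of mt-Te came to 8.79, 9.19, 7.53 and 15.6 CPM at P01, then 7.08, 12.2, 7.53 and 5.70 at P04, 4.41, 7.27, 7.02 and 5.34 by P09 and 21.3, 14.7, 9.28 and 9.18 by P23. The P09 libraries lay below those of P01 and P23, the other pairs of days overlapped, and the P23–P09 rise (log2 fold change of 1.20 ± 0.30 SE, adjusted p = 0.00669, edgeR) rested on low counts, being lost without any of P09 no. 2 (1.05), P09 no. 4 (1.30), P09 no. 5 (1.17), P23 no. 1 (0.92) and P23 no. 5 (1.17). This rise was also lost with the plain library total (0.51) and with counts thinned to the smallest library total (1.11). At P01 mt-Tw had 11.7, 14.2, 9.59 and 12.1 CPM, followed by 6.06, 5.58, 4.68 and 4.79 at P04, 7.62, 10.9, 5.75 and 7.90 by P09 and 16.0, 14.7, 13.3 and 0.984 by P23. The library P23 no. 8 lay below every other, and the remaining P23 libraries stood above P04 and P09. With it the P23–P09 log2 fold change of 0.55 ± 0.42 (SE, adjusted p = 0.389) was the only tRNA change of that comparison not called, and without it the value was 0.89 (adjusted p = 0.000613, edgeR) and called.

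The other 7 tested tRNAs, mt-Tf, mt-Tl1, mt-Ti, mt-Tq, mt-Ta, mt-Tc and mt-Ts2, carry phenylalanine, leucine (UUR codons), isoleucine, glutamine, alanine, cysteine and serine (AGY codons). All 7 were called up in P23–P09, from 1.501 for mt-Tc to 2.33 for mt-Ta on the log2 scale, and in P23–P01 from 1.29 for mt-Tc to 2.60 for mt-Tl1 (edgeR). In P09–P04 only mt-Tc of these passed.

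**Figure D4:**
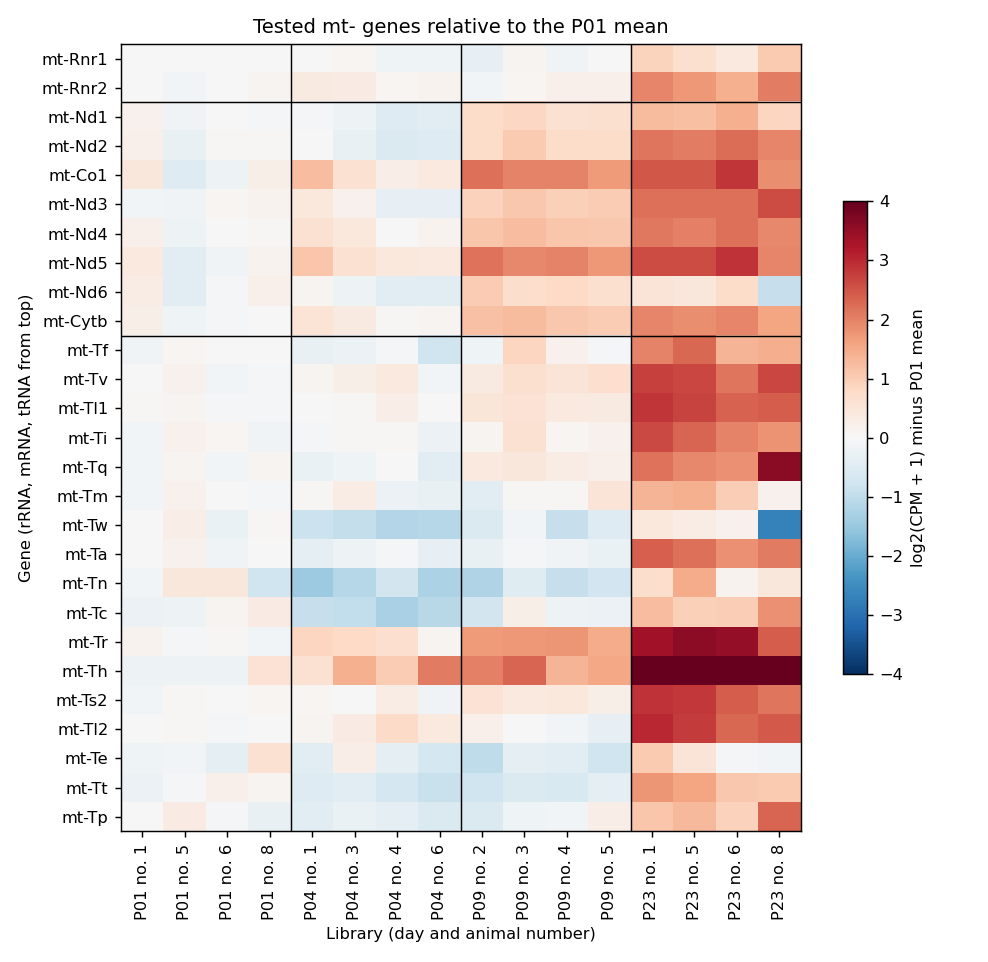
Log2(CPM + 1) of the 27 tested genes in each library minus the P01 mean of the gene, with rRNA, mRNA and tRNA genes from top to bottom and libraries ordered by day (values beyond ±4 have the end colours). The mRNA rows turn red at P09, most tRNA rows and mt-Rnr2 at P23, and P23 no. 8 differs from its group in mt-Nd6, mt-Tq, mt-Tm, mt-Tw and mt-Tp.

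Which tRNAs moved otherwise than their class was read from a fit with the tRNA class total as library size, in which 3.75% of all genes tested were called up in P09–P01, 0.14% in P23–P09 and 0.68% in P23–P01, and 2.88%, 13.2% and 84.8% were called down in P04–P01, P09–P01 and P23–P01. Relative to the class, mt-Tr was higher by 1.56 ± 0.23 in P09–P01 and by 1.44 ± 0.23 in P23–P01, and mt-Tl2 by 0.92 ± 0.19 in P23–P09 (edgeR, adjusted p = 2.18e-06, 8.58e-07 and 1.75e-05). The value of mt-Th was 1.15 ± 0.31 in P23–P09 (adjusted p = 0.000921, edgeR), and its comparisons with P01 were left aside here because of the filter. The P23–P09 call of mt-Tl2 was lost without P09 no. 5 (0.78) or P23 no. 1 (0.82). Lower than the class at P23 than at P01 were mt-Tw (-1.88 ± 0.48), mt-Te (-1.497 ± 0.26) and mt-Tn (-1.09 ± 0.28), called by edgeR (adjusted p = 0.00205, 1.75e-06 and 0.000359). Without P23 no. 8 these 3 were still called, and mt-Ts2 (0.88) and mt-Tl2 (0.88) were called up in P23–P01 as well. In P23–P09 mt-Tw was called down without mt-Tp in the class total (-1.26). With the whole class total and all 16 libraries, 9913 of the 10742 genes tested were called down in P23–P09. In P23–P01 mt-Tm was called down without mt-Tp in the class total (-0.95) and without P23 no. 1 (-0.87), P23 no. 5 (-0.92) or P23 no. 6 (-0.89), and in P23–P09 without P23 no. 5 (-0.85).

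Relative to the class in P04–P01, mt-Tn (-1.29 ± 0.32, adjusted p = 0.00512) and mt-Tc (-0.94 ± 0.19, adjusted p = 0.000379) were called down by edgeR. The call of mt-Tn was lost without P01 no. 5 (-1.19), P01 no. 6 (-1.09), P04 no. 1 (-1.17), P04 no. 3 (-1.23) or P04 no. 6 (-1.29), and that of mt-Tc without P01 no. 8 (-0.79). In P09–P01 mt-Tn (-1.19 ± 0.30, adjusted p = 0.00161) and mt-Te (-0.92 ± 0.27, adjusted p = 0.00811) were called down by edgeR, mt-Tn not without P01 no. 6 (-0.998), and mt-Te not without P01 no. 1 (-0.98), P01 no. 8 (-0.60), P09 no. 2 (-0.86), P09 no. 3 (-0.99) or P09 no. 5 (-0.82). In P09–P04 no tRNA was called, except mt-Tl2 (-0.93) without P09 no. 2 and mt-Tr (0.90) without P09 no. 5. With all 16 libraries, 811 of the 10742 genes tested were called down and 50 up in P09–P04.

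Light-strand tRNAs took between 40.6% and 43.3% of mt-tRNA counts at P01, between 33.5% and 35.8% at P04 and between 34.6% and 36.7% at P09. At P23 3 libraries had between 30.9% and 33.1%, below all earlier libraries, and P23 no. 8 had 55.5%, above them all. The P01 libraries did not overlap P04 or P09, and after adjustment over 5 comparisons no difference passed (exact permutation p = 0.0286, adjusted p = 0.0714 for P04–P01 and P09–P01). These tests were chosen after the values had been seen. Among the light-strand tRNAs, P23 no. 8 had 13123 CPM of mt-Tq, against 3827 to 4912 in the other 3 P23 libraries, and 30825 CPM of mt-Tp, against 11539.7 to 15089.6, while on the heavy strand it had 6871 CPM of mt-Tm, against 12163 to 16625.

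**Figure D5:**
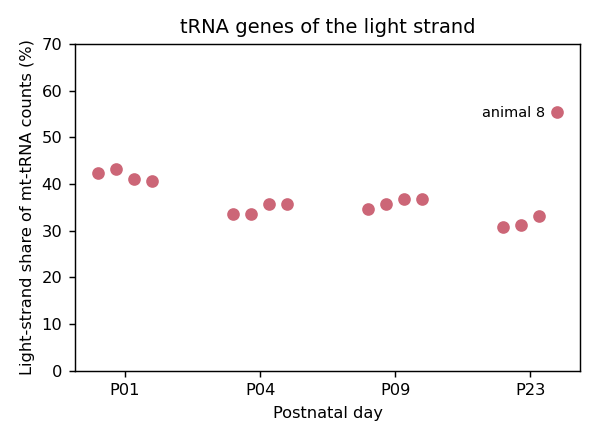
Share of mt-tRNA counts (%) held by the tRNA genes of the light strand in each of the 16 libraries by postnatal day, 1 point per library. The 4 P01 points stand above P04 and P09, and P23 holds 3 points below 34% and 1, animal 8, at 55.5%.

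That library, P23 no. 8, stood apart in its light-strand share of mt-tRNA counts and entered every P23 comparison. Its light-strand genes did not move together. Relative to the mean of the other P23 libraries, its CPM ratio was 3.06 for mt-Tq, 2.32 for mt-Tp and 1.70 for mt-Tc. The ratio was 0.95 for mt-Ta, 0.73 for mt-Tn, 0.61 for mt-Te and 0.36 for mt-Nd6. Its shares of all counts were 32.2% mt-rRNA, 6.34% mt-tRNA and 3.505% mt-mRNA, the last being the lowest of the P23 group. Without it, 17 of 17 tRNAs were called up in P23–P09 and 14 in P23–P01, and 3 and 7 of the 8 mRNAs, so that none of these tRNA and mRNA counts became smaller. Of the rRNAs, mt-Rnr1 lost its P23–P09 call (0.75), while mt-Rnr2 kept its own (1.63). In that fit 525 of 11097 genes tested were called up in P23–P09 and 1542 in P23–P01.

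Nuclear genes supply the machinery that makes and matures mitochondrial RNA, and 4 lists of them were read from the same fit. For transcription and maintenance of mitochondrial DNA (the polymerase Polrmt, the packaging factor Tfam and others) 8 of 13 genes were tested, and none was called in either direction in P23–P01 by edgeR or DESeq2 (3 higher and 1 lower at an unadjusted p under 0.05 by edgeR). In P09–P01 1 of the 8, the polymerase Polrmt, was called down, from 9.52, 8.73, 8.22 and 7.11 CPM at P01 to 3.21, 2.27, 3.03 and 2.56 CPM at P09 (log2 fold change of -1.56 ± 0.30 SE, adjusted p = 0.000144, edgeR), and DESeq2 called 1 gene down too. In that comparison 11.5% of all genes tested were called down. At P04 Polrmt stood at 5.31, 9.72, 3.64 and 2.74 CPM, and at P23 at 5.33, 2.80, 5.88 and 4.59. The summed level of the list lay between 41.6 and 43.2 CPM at P01 and between 43.6 and 49.8 CPM at P23. In P23–P01, for processing, stability and decay, 6 were called up and 1 down of 17 tested (median 0.75, beside 0.00 over all genes), against 4 and 1 by DESeq2. For modification it was 2 up and 1 down of 11 (median 0.08), against 1 and 1 by DESeq2. For aminoacyl-tRNA synthetases it was none up and 2 down of 17 (median 0.30, with 5 higher at an unadjusted p under 0.05 and no call up by DESeq2). Mars2, which charges methionine tRNA, was called up without P01 no. 1 (1.26), P23 no. 1 (1.18) or P23 no. 8 (1.13). These counts stand beside the 13.5% up and 16.6% down of all genes in P23–P01, and with the plain library total none of the processing genes was called up.

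Rexo2, an oligoribonuclease that degrades short RNA in mitochondria, went from 2.20, 3.22, 3.77 and 4.27 CPM at P01 to 6.13, 10.0, 9.95 and 4.92 CPM at P23, groups without overlap (log2 fold change of 1.22 ± 0.28 SE, adjusted p = 0.000636, edgeR). Ptcd1, a pentatricopeptide protein of mitochondrial RNA metabolism, had 1.46, 1.84, 1.03 and 0.711 CPM at P01 and 2.93, 2.56, 3.17 and 4.26 CPM at P23 (log2 fold change of 1.35 ± 0.40 SE, adjusted p = 0.00567, edgeR), again without overlap. The Ptcd1 call was lost without P01 no. 6 (1.29), P01 no. 8 (1.17), P23 no. 6 (1.38) or P23 no. 8 (1.24). It was also lost by DESeq2 (1.39) and with the plain library total (0.97). Ptcd1 passed the filter on low counts only through libraries of later days, so that some rise against P01 was built in. Mtpap, the mitochondrial poly(A) polymerase, had 12.5, 18.8, 12.0 and 14.2 CPM at P01 and 11.2, 8.39, 6.56 and 4.92 CPM at P23. Its fall (log2 fold change of -0.86 ± 0.21 SE, adjusted p = 0.000918, edgeR) was lost without P01 no. 5 (-0.70), P23 no. 6 (-0.76) or P23 no. 8 (-0.70), with nuclear scaling (-0.85) and without the filter (-0.78).

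Among the modifying enzymes, Trmt5, which methylates a guanosine beside the anticodon of tRNAs, had 1.10, 1.84, 1.37 and 1.42 CPM at P01 and 8.26, 5.83, 13.3 and 5.25 CPM at P23 (log2 fold change of 2.53 ± 0.43 SE, adjusted p = 2.81e-05, edgeR), the largest rise of that list. Mrm3 and Mrm1, both methyltransferases of the 16S rRNA in human cells, moved in opposite directions. Mrm3 went from 2.20, 0.919, 2.05 and 1.78 CPM at P01 to 4.53, 3.50, 4.30 and 3.28 CPM at P23 (log2 fold change of 1.13 ± 0.33 SE, adjusted p = 0.00511, edgeR), a call lost without P01 no. 5 (0.97), P01 no. 8 (1.14), P23 no. 1 (1.07) or P23 no. 6 (1.10). The Mrm3 call was also lost by DESeq2 (1.15), with the plain library total (0.75) and without the filter (1.21). No P01 library of Trmt5 or Mrm3, the genes of this list called up, reached the filter's minimum count of 10. Both genes passed the filter only through libraries of later days, so that some rise against P01 was built in. Mrm1 went from 7.32, 8.73, 10.3 and 10.7 CPM at P01 to 4.26, 3.73, 4.30 and 2.295 CPM at P23 (log2 fold change of -1.31 ± 0.24 SE, adjusted p = 3.40e-05, edgeR), a call lost with counts thinned to the smallest library total (-1.30).

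Both called synthetases fell. Lars2, which charges the mitochondrial leucine tRNAs, stood at 2812, 2706, 3221 and 3153 CPM at P01, then 2495, 2799, 1866 and 2094 at P04, 432, 528, 584 and 709.8 by P09 and 136, 139, 113 and 213 by P23, with a lower mean at every step (log2 fold change of -4.31 ± 0.21 SE, adjusted p = 2.14e-16, edgeR). At P01 it made up most of its list, whose 19 genes summed to between 2789 and 3304 CPM at P01 and between 204 and 298 at P23. Its P01 mean of 2973 CPM stood far above that of Ears2 (14.3), and above that of the cardiomyocyte marker Myh6 (796). Which part of the Lars2 locus gave these counts was not tested, so they cannot be read as intact synthetase mRNA. The leucine tRNAs mt-Tl1 and mt-Tl2 had log2 fold changes of 2.60 and 2.67 in the P23–P01 comparison. Ears2, which charges glutamate tRNA, went from 13.5, 14.7, 13.7 and 15.3 CPM at P01 to 0.533, 2.10, 1.81 and 1.64 CPM at P23 (log2 fold change of -3.19 ± 0.28 SE, adjusted p = 8.30e-11, edgeR), while mt-Te gave a log2 fold change of 0.40 ± 0.31 (SE, adjusted p = 0.305), not called.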

How the data were processed

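RNA of 16 ventricles (4 groups of 4) was sequenced as small RNA libraries, on an Illumina NextSeq 500. The deposited counts per gene were made by the authors, who according to the paper's methods and the submitters' processing notes used bcl2fastq, Trimmomatic, STAR and featureCounts with GRCm38.p6, and DESeq2 for their own tests. How strand and multi-mapping reads were set in the counting is not given in the sources used here. Columns were matched to groups by the age in their names, the animal numbers in these names were not tied to labelled replicates, and 1 value column was not used. The count table paired its gene IDs with symbols, and the positions and names of all 37 genes were read from RefSeq tables of GRCm38.p6.

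The counts were fitted with edgeR 4.0.16 (R 4.3.3, limma 3.58.1) by the quasi-likelihood test over all 16 libraries with TMM factors. Genes passed at a minimum count of 10 and a total of 15 (10742 genes), p-values were adjusted by the Benjamini-Hochberg method over all of them, and a call needed an adjusted p under 0.01 and a fold over 1.8. Class shares, the rRNA ratio and the light-strand share were compared by 2-sided exact permutation tests over samples (threshold 0.05), over 15 class-by-comparison pairs or 5 comparisons, and 4 against 4 libraries cannot go below p = 0.0286. Alternatives were DESeq2 1.42.0, other scalings, no filter, 2 groups alone, thinning to the smallest total, other share denominators and leaving out each library. Shares were computed in Python 3.11.15 (pandas 2.3.3, scipy 1.17.1 for the tests, numpy 2.4.6), figures were drawn with matplotlib 3.10.9, and the fit was tested on simulated data.

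Genes are named by rule: both rRNAs, then among tRNAs and among mRNAs the 3 highest mean CPM and the 3 largest rises and falls (or smallest rises) of P23–P01 and of P09–P01, which took in all 8 tested mRNAs, and the 2 largest called rises and falls of each nuclear list in P23–P01. Other genes named were chosen after their values were seen. The members and lists were chosen with earlier results of these data known. Totals of 2301587 to 5553530 counts leave genes under about 1 CPM with few counts per library.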

Additional observations from a re-analysis of the deposited data

Results flagged for a closer look

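In 11 of the 144 groups of 4 libraries that were examined, 1 library stood further from the rest than Dixon's 95% limit allows, where chance gives about 1 in 20 groups. P23 no. 8 accounted for 4 of them. It had 13123 CPM of mt-Tq against 3827 to 4912 in the other P23 libraries, 889 CPM of mt-Nd3 against 669 to 676, a light-strand share of mt-tRNA counts of 55.5% against 30.9% to 33.1%, and an mt-Nd6 share of mt-mRNA counts of 0.179% against 0.374% to 0.393%.

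P09 no. 3 stood apart in 2 genes, with 1268 CPM of mt-Ti against 875 to 920.5 and 7615 CPM of mt-Nd2 against 6044 to 6138. P23 no. 6 had 10899.5 CPM of mt-Tv against 15477 to 16159.7. In mt-Th, P23 no. 1 had 25.3 CPM against 23.1 to 23.3, and P01 no. 8 had 0.711 CPM while the other P01 libraries were at 0. The mt-tRNA share of all counts in P04 no. 6 was 2.16% against 2.48% to 2.53%, and the mt-mRNA share of mt- counts in P04 no. 1 was 10.8% against 8.33% to 8.67%.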

How the results depend on the processing

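No paired analysis was possible because the columns of the count table carry animal numbers that cannot be tied to the replicate numbers of the labels. A count of 0 allows up to 3 counts per library, a level near 1 CPM, and counts do not separate intact RNA from pieces. The causes of the shifts below were not tested. Thinning to the smallest total left 8729 genes and gave 337, 280 and 682 calls over all genes in P04–P01, P09–P04 and P23–P09, against 559, 548 and 1107, and 1293 against 1895 in P09–P01. The plain library total gave 3392 calls in P23–P09, 139 up and 3253 down.

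For mt-tRNA genes in P04–P01, 0 were called up by DESeq2 and with 2 groups alone, and 2, 2 and 3 were called down by DESeq2, without the filter and with 2 groups alone. In P09–P04 1 was called up after thinning, and in P09–P01 1 with 2 groups alone, where 1 was called down, as without the filter. For mt-mRNA genes, 0 were called up in P23–P09 with the plain total and 1 down without the filter, and 8 were called up in P09–P01 without the filter. Among the nuclear lists in P23–P01, the plain total gave 1 transcription gene down (Polrmt, also with 2 groups alone), 0 processing genes up and 1 modification gene up, a count of 1 also found by DESeq2, without the filter, with 2 groups alone and after thinning. The processing gene called down was lost with nuclear scaling and without the filter (0), the modification gene called down after thinning (0), and 1 synthetase was called up without the filter.

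The mt-Rnr1 log2 fold change was 0.16, 0.037, 0.16 and 0.20 with the plain total in P04–P01, P09–P04, P23–P09 and P09–P01, and 0.018, 0.056, 0.77 and 0.075 without the filter, the P23–P09 values no longer called, as with 2 groups alone (0.82) or thinned (0.81). Uncalled genes also changed sign. With the plain total these were mt-Ti 0.18, mt-Tq 0.020 and mt-Tm 0.20 in P04–P01, mt-Nd1 -0.15, mt-Tw -0.11, mt-Co1 -0.16 and mt-Nd5 -0.072 in P23–P09, mt-Ta 0.092, mt-Tc 0.059, mt-Tl2 0.26 and mt-Tp 0.15 in P09–P01, and mt-Nd6 -0.051 in P23–P01. Without the filter they were mt-Ti 0.039 and mt-Tm 0.057 in P04–P01, mt-Tl2 0.11 and mt-Tp 0.034 in P09–P01, and mt-Tw 0.056 in P23–P01. Nuclear mRNA scaling gave mt-Nd3 -0.018 in P04–P01, and thinning mt-Ta -0.0092 and mt-Tt -0.0061 in P09–P04.

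With nuclear rRNA left out, the mt-tRNA share differed by -0.0951 points in P04–P01 and 1.02 in P09–P01, no longer passed, and the mt-mRNA share by -0.627 in P23–P09. With the other mt- classes left out, the mt-rRNA share differed by 0.302 in P09–P04. With mt-rRNA left out of the mt- total, the mt-tRNA part differed by -13.4, 16.9, -18.1 and -1.20 points in P09–P04, P23–P09, P09–P01 and P23–P01, and the mt-mRNA part by 13.4, -16.9 and 18.1 in the former 3. Without mt-Tp in the tRNA total, 1 tRNA fell below its class in P23–P09.

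Leaving out 1 library at a time gave ranges as follows. The mt-tRNA calls ran from 0 to 1 up and from 1 to 2 down in P04–P01, from 1 to 2 up in P09–P04 and from 0 to 1 down in P09–P01, and the log2 fold change of mt-Rnr1 from -0.091 to 0.063 in P09–P04, from 0.75 to 0.97 in P23–P09, from -0.15 to 0.0072 in P09–P01 and from 0.68 to 0.89 in P23–P01. Called modification genes ran from 1 to 2 up, processing genes from 0 to 1 down and synthetases from 0 to 1 up. Relative to the class, tRNA calls ran from 0 to 1 up and from 1 to 2 down in P04–P01, from 0 to 1 each way in P09–P04, from 1 to 2 up and 0 to 1 down in P23–P09, from 1 to 2 down in P09–P01 and from 2 to 4 up in P23–P01. Signs changed in P04–P01 for mt-Ti (-0.091 to 0.021), mt-Tm (-0.15 to 0.054), mt-Nd3 (-0.14 to 0.12) and mt-Ts2 (-0.0027 to 0.14), in P09–P04 for mt-Tm (-0.062 to 0.25), mt-Ta (-0.0043 to 0.11) and mt-Tt (-0.047 to 0.11), in P09–P01 for mt-Tf (-0.016 to 0.40), mt-Tm (-0.090 to 0.23), mt-Tl2 (-0.12 to 0.034) and mt-Tp (-0.28 to 0.017), and in P23–P01 for mt-Tw (-0.20 to 0.33).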
